A study of Mus musculus with 12 samples.

Results

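The genes of the mTOR kinase complexes, of their TSC and Rheb control and of the TTT complex were followed in granule cell progenitors from control pups and from Znhit3 conditional knockout (cKO) pups. These progenitors divide in the outer cerebellum after birth and give rise to granule neurons. The members were taken by name: Mtor, Rptor and Rictor, the regulators Tsc1, Tsc2 and Rheb, the TTT genes Telo2, Tti1 and Tti2, and Trrap. All 10 were found, each as 1 row, among the 31091 genes of the deposited table. The series holds 12 samples, and the 6 used here are 3 control libraries (genotype WT) and 3 cKO libraries at postnatal day 3 (P3). Libraries of P6 were not analysed here. RNA selected for poly(A) tails was sequenced. The labels give the cells as isolated from the mice, and the promoter that drives the recombinase, the sex of the mice and any pooling of animals were not stated in the sources used here. Nothing says that replicates came from separate animals, so the p-values reflect only how far these samples spread, and that spread may be technical.

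mTOR is a kinase that couples nutrients and growth factors to protein synthesis and cell growth. It works in mTORC1, built on raptor (Rptor), and in mTORC2, built on rictor (Rictor). The GTPase Rheb activates mTORC1, and the proteins of Tsc1 and Tsc2 turn Rheb off. mTOR and its relatives, the PI3K-related kinases (PIKKs), are very large proteins that need the TTT complex of Telo2, Tti1 and Tti2, together with Hsp90 and the R2TP complex, to reach their mature form. TRRAP is a PIKK without kinase activity and a scaffold of histone acetyltransferase complexes. R2TP also assembles box C/D snoRNPs, the pathway in which ZNHIT3 is known to act. In granule cell progenitors mTOR signalling is known for its part in growth downstream of hedgehog and insulin-like growth factor signals.

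The labels were checked first. Znhit3 measured 9.15, 8.62 and 8.58 FPKM (reads per kilobase of gene, scaled to the reads of the library) in control and 4.03, 4.01 and 4.57 FPKM in cKO, a log2 difference of -0.91 ± 0.06 (SE) with a limma adjusted p of 0.00024. All 3 cKO libraries lay below all 3 control libraries, and a two-sided exact permutation test reached p = 0.1, the lowest value that 3 against 3 libraries allow. The libraries held between 29119803 and 52961445 counted reads. A member had between 842 and 8895 reads in a library. Differences are given as log2(FPKM + 1) in cKO less that in control, a scale that makes changes of low genes look smaller, and adjusted p-values are from limma over all 13538 tested genes unless stated otherwise.

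Of the 10 members 1 rose, none fell and 9 did not pass the test at an adjusted p under 0.05. Over all tested genes 19.1% passed in either direction, 13.4% as higher and 5.74% as lower, so 1 of 10 members is no more than the share among all genes. Before adjustment 3 members, Trrap, Rptor and Tsc1, had a limma p under 0.05, as 4846 of the 13538 tested genes had. Voom on the recovered reads called 3 members, each as higher, where it called 27.5% of all genes in either direction and 2601 of the 13538 as higher. The difference was positive for 9 of the 10 members, and 57.9% of all tested genes also had a positive difference. The authors' deposited table lists negative log2 fold changes for Mtor, Rheb and Telo2 (-0.0024, -0.024 and -0.016) as well as for Tti2 (-0.14). The median there is 0.015 over the members and -0.015 over 13204 of the genes tested here. The median difference of the members was 0.06, beside 0.03 over all tested genes. It turned to -0.029 after removal of a gene length trend (all genes -0.0058). With median-ratio scaling it was 0.020 (all genes -0.0055) and with quantile normalization 0.010 (all genes -0.0027). TPM scaling gave 0.10 (all genes 0.075) and voom 0.068 (all genes 0.040). In 4 members, Trrap, Rptor, Tsc1 and Tsc2, all 3 cKO libraries lay above all 3 control libraries, as they did in 27.3% of tested genes. No member had all 3 cKO libraries below all 3 control libraries, as 13.2% of tested genes had, and in either direction the groups did not overlap in 40.5% of them. The authors' deposited table also has 1 of the 10, Trrap, under an adjusted p of 0.05. The same holds for 23.1% of the 16021 genes to which it gives an adjusted p below 1, the set used here for this share. Of those 16021, 11.4% are higher in cKO.

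**Figure D1:**
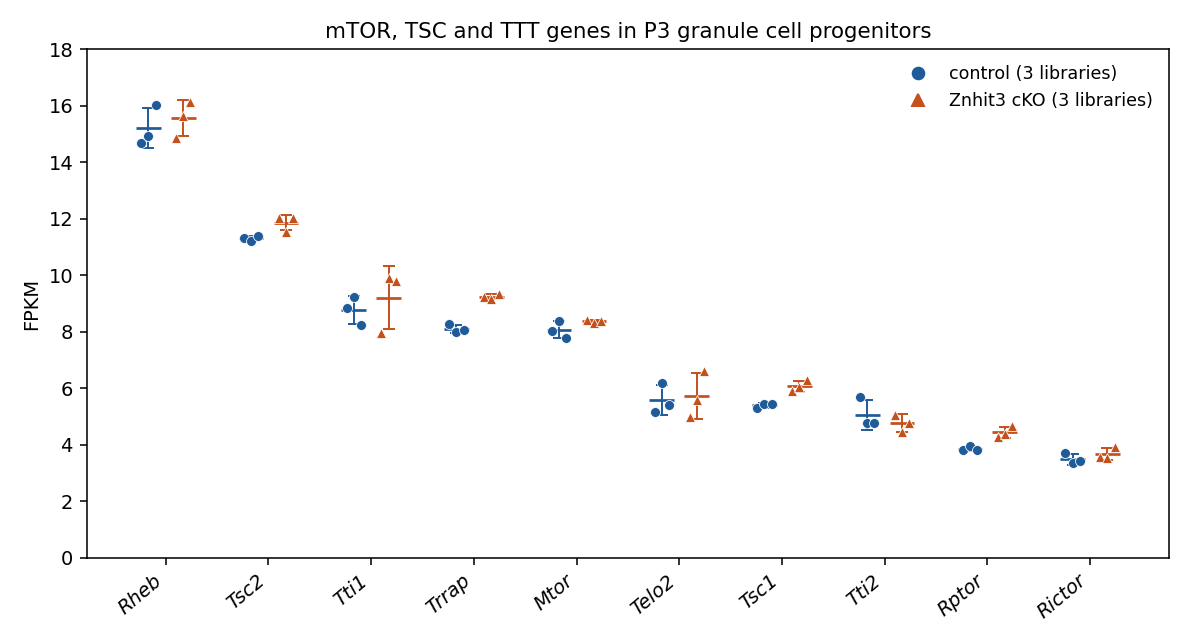
FPKM of the 10 genes in each library of control (circles) and cKO (triangles), with the group mean as a short line and the SD as an error bar, n = 3. The genes stand in the order of their control level, from Rheb at 15.2 to Rictor at 3.49 FPKM, and the groups are apart for Trrap, Tsc1, Tsc2 and Rptor only.

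Trrap was the member that rose. It measured 8.27, 8.00 and 8.05 FPKM in control and 9.22, 9.17 and 9.34 FPKM in cKO. The lowest cKO library lay above the highest control library, and the values within each group were close together. The mean went from 8.11 ± 0.14 to 9.24 ± 0.09 FPKM (SD, n = 3), a gain of 14.0%, with a log2 difference of 0.17 ± 0.04 (SE; 95% interval 0.07 to 0.26) and an adjusted p of 0.027. For Trrap the authors' deposited table lists a log2 fold change of 0.13 and an adjusted p of 0.015. Trrap (ENSMUSG00000045482, chromosome 5, 144704542 to 144796588, plus strand, with the position from the deposited table) has a deposited length of 20859 bases, longer than 99.5% of tested genes. The call ended after removal of a gene length trend (difference 0.08, adjusted p of 0.19), with median-ratio scaling (0.13, 0.062) and with quantile normalization (0.11, 0.11), and it held in 8 of 17 alternatives, with adjusted p-values from 0.0042 to 0.19. It also ended without control replicate 2 (adjusted p of 0.079), control replicate 3 (0.080), cKO replicate 1 (0.053), cKO replicate 2 (0.087) or cKO replicate 3 (0.075), although the difference stayed between 0.16 and 0.18.

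Rptor and Tsc1 came next by log2 difference and did not pass. Rptor, the gene of the mTORC1 scaffold that recruits substrates, measured 3.81, 3.94 and 3.81 FPKM in control and 4.26, 4.39 and 4.65 FPKM in cKO. The groups did not overlap, and the difference was 0.16 (95% interval 0.04 to 0.28) with an adjusted p of 0.064. The mean of Rptor gained 15.0%, and the authors' deposited table lists a log2 fold change of 0.15 (adjusted p of 0.079). Tsc1, which encodes hamartin, the partner that stabilises the Tsc2 protein, measured 5.30, 5.44 and 5.45 FPKM in control and 5.90, 6.05 and 6.28 FPKM in cKO. Its groups did not overlap either, and the difference was 0.15 (95% interval 0.04 to 0.25) with an adjusted p of 0.063. The mean of Tsc1 gained 12.6%, and the authors' deposited table lists a log2 fold change of 0.12 (adjusted p of 0.14). In both, cKO replicate 3 was the highest library. Rptor and Tsc1 passed with TPM scaling (adjusted p of 0.042 and 0.037), which called 3 of the 10 members and 22.1% of all genes, and with voom on the recovered reads (0.015 and 0.026), and over all alternatives the highest adjusted p was 0.38 for Rptor and 0.46 for Tsc1.

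The sequences just upstream of the annotated starts of these genes are shown because these 3 members had the largest differences. They are the 250 bases before the RefSeq start (build GRCm38.p6, plus strand for each), 5′ to 3′, with the only match to the motifs searched in capitals.
Trrap, chr5:144768544-144768793: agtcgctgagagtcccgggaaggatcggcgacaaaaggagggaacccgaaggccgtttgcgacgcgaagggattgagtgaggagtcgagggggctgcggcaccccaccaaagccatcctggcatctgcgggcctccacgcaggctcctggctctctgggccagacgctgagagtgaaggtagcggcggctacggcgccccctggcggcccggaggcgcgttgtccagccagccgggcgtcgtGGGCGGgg
Rptor, chr11:119602655-119602904: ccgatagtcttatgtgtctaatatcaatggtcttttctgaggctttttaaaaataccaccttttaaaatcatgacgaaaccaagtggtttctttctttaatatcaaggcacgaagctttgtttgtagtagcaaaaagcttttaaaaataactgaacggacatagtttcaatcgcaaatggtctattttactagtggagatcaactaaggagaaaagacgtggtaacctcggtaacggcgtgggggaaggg
Tsc1, chr2:28640983-28641232: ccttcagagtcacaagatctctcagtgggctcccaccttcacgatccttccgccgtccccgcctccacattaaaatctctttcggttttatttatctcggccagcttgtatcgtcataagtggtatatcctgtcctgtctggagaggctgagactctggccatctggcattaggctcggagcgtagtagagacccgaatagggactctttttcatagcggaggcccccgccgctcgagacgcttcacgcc

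Motifs were searched on both strands as exact letters: the E-box CACGTG, the CCAAT box CCAAT, the ETS core CCGGAAG, the GC box GGGCGG and the core of the NRF1 motif. The Trrap window held 1 GC box and the windows of Rptor and Tsc1 held none of these letters, so the 3 windows shared none of them. A match describes letters in a window, not a binding site. GC content also differed, with 69.6% in the Trrap window, 54.4% in that of Tsc1 and 37.6% in that of Rptor. Of the 9 members with a window (Tti2 had none), 4 held a GC box, namely Mtor, Rheb, Rictor and Trrap, and 32.7% of 32851 windows of this length did. A CCAAT box stood in those of Mtor, Rictor and Telo2 (33.8% of all windows), an ETS core in those of Mtor and Tsc2 (6.91%), an E-box in that of Rheb (6.02%) and an NRF1 core in that of Telo2 (3.74%).

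The kinase gene itself and its mTORC2 partner showed no difference beyond the spread. Mtor measured 8.04, 8.39 and 7.80 FPKM in control and 8.41, 8.31 and 8.39 FPKM in cKO, and the groups overlapped. Its difference was 0.05 with a 95% interval of -0.06 to 0.15 and an adjusted p of 0.50, and the authors' deposited table gave a log2 fold change of -0.0024. Rictor, the scaffold gene of mTORC2, measured 3.72, 3.35 and 3.40 FPKM in control and 3.56, 3.54 and 3.92 FPKM in cKO, a difference of 0.06 (95% interval -0.08 to 0.20; adjusted p of 0.53). The groups of Rictor overlapped, with the lowest library in control and the highest in cKO. Angptl7, which overlaps Mtor on the opposite strand over 5278 bases, was low, at 0.09 FPKM in control and 0.49 FPKM in cKO. Mtor (ENSMUSG00000028991) lies on chromosome 4 from 148533068 to 148642140, Rptor (ENSMUSG00000025583) on chromosome 11 from 119493731 to 119790402, and Rictor (ENSMUSG00000050310) on chromosome 15 from 6737860 to 6829882, all on the plus strand as the deposited table gives them.

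The other 2 regulators did not pass. Tsc2, which encodes tuberin, the GTPase-activating protein for Rheb, measured 11.3, 11.2 and 11.4 FPKM in control and 12.0, 11.5 and 12.0 FPKM in cKO. The groups did not overlap, yet the difference was only 0.06 (95% interval -0.03 to 0.16) with an adjusted p of 0.30. Rheb measured 14.7, 14.9 and 16.03 FPKM in control and 14.9, 15.7 and 16.1 FPKM in cKO, with a difference of 0.03 (95% interval -0.09 to 0.15; adjusted p of 0.71). Its groups overlapped over nearly their whole range. Tsc1 (ENSMUSG00000026812) lies on chromosome 2 from 28531240 to 28581179 on the plus strand, Tsc2 (ENSMUSG00000002496) on chromosome 17 from 24814790 to 24851604 on the minus strand, and Rheb (ENSMUSG00000028945) on chromosome 5 from 25007821 to 25047622 on the minus strand. Tsc2 shares 693 bases with Pkd1 on the opposite strand, and Pkd1 measured 5.53 and 6.79 FPKM in control and cKO. Without a stated use of strand in counting, reads of that stretch cannot be told apart.

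None of the TTT genes passed. Telo2, the subunit that docks the complex to its clients, measured 5.15, 6.17 and 5.40 FPKM in control and 4.99, 5.57 and 6.62 FPKM in cKO, a difference of 0.03 with a wide 95% interval of -0.19 to 0.25 and an adjusted p of 0.86. Its lowest and its highest value both came from cKO libraries. Tti1 measured 8.86, 9.23 and 8.24 FPKM in control and 7.94, 9.90 and 9.80 FPKM in cKO, with cKO replicate 1 below every control library and the other 2 above (difference 0.06, 95% interval -0.13 to 0.25, adjusted p of 0.65). Tti2 was the only member with a negative difference, -0.07 (95% interval -0.24 to 0.10; adjusted p of 0.52), at 5.68, 4.75 and 4.77 FPKM in control and 5.06, 4.44 and 4.78 FPKM in cKO. Its spread in control came from replicate 1. Tti2 overlaps Mak16 on the opposite strand over 5240 bases, and Mak16 measured 8.73 FPKM in control and 9.88 FPKM in cKO, so its reads may be shared. Telo2 (ENSMUSG00000024170) lies on chromosome 17 from 25318544 to 25334941 and Tti1 (ENSMUSG00000027650) on chromosome 2 from 157823723 to 157870353, both on the minus strand, and Tti2 (ENSMUSG00000031577) on chromosome 8 from 31640343 to 31654730 on the plus strand.

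**Figure D2:**
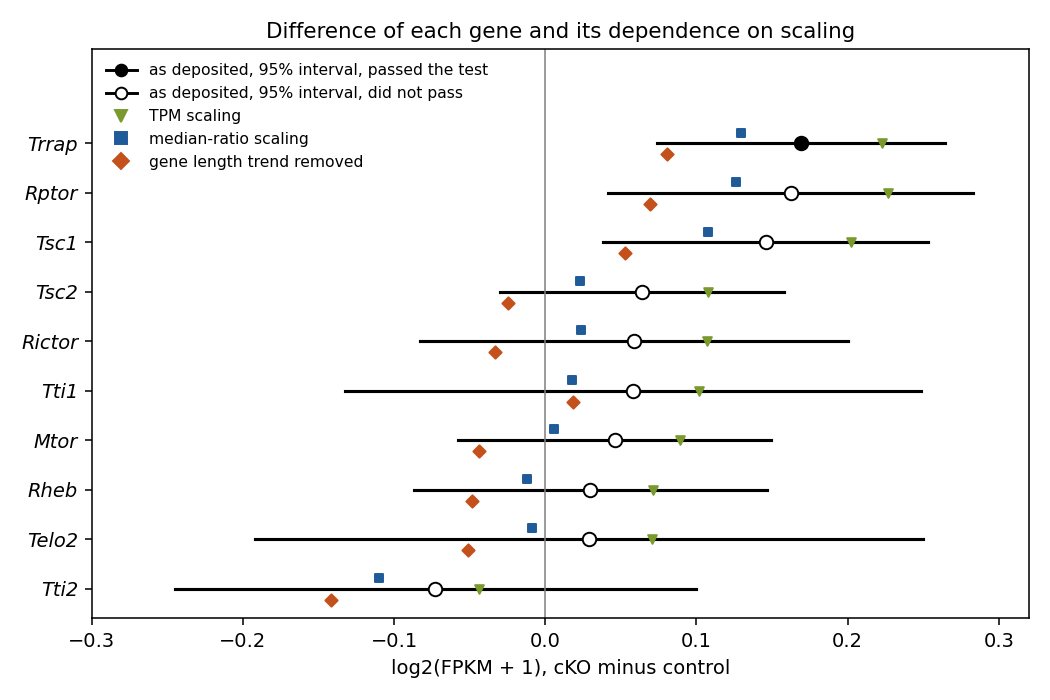
Log2 difference, cKO minus control, of each gene: circles with 95% intervals for the values as deposited (filled where the adjusted p was under 0.05), and smaller marks for 3 other scalings. Only Trrap has a filled circle, the intervals of Rptor and Tsc1 also lie above 0, and removal of the gene length trend moved 9 of 10 differences to between -0.05 and 0.08, with Tti2 at -0.14.

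Levels of different genes were compared per length. In control the order was Rheb, Tsc2, Tti1, Trrap, Mtor, Telo2, Tsc1, Tti2, Rptor and Rictor. Library values overlapped between the neighbours Tti1 and Trrap, Trrap and Mtor, Telo2 and Tsc1, and Tsc1 and Tti2. In cKO Trrap stood before Tti1 and Tsc1 before Telo2, changes of place between genes whose libraries overlapped. The levels depend on the deposited length, which was from 1.08 times (Tti1) to 2.04 times (Rptor) the length of the longest GENCODE M21 transcript of the same gene. With the longest transcript as the length, an alternative chosen after seeing the data, Rheb and Tsc2 still led at 29.0 and 17.4 FPKM in control, but Tti2 was lowest at 6.08 and Rictor next at 6.34.

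Ratios were compared per library, between the scaffolds of the 2 mTOR complexes and within TSC and TTT. The ratio of Rptor to Rictor was 1.02, 1.18 and 1.12 in control and 1.20, 1.24 and 1.19 in cKO, without overlap. That of Tsc1 to Tsc2 was 0.47, 0.48 and 0.48 in control and 0.49, 0.52 and 0.52 in cKO, also without overlap. Both had an exact two-sided permutation p of 0.1, the smallest possible, and 0.2 after Benjamini-Hochberg adjustment over 4 ratios, so 3 against 3 libraries could not reach 0.05. The ratio of Tti1 to Telo2 averaged 1.58 ± 0.12 in control and 1.62 ± 0.15 in cKO (SD, n = 3; exact permutation p = 0.7), and that of Tti2 to Telo2 averaged 0.92 ± 0.17 and 0.84 ± 0.15 (SD, n = 3; exact permutation p = 0.6).

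Gene length moved with the differences in these libraries. Over all 13538 tested genes, length and difference had a Spearman rho of 0.26, given as a description across genes that share the same 6 libraries. Genes under 2000 bases had a median difference of -0.06 and genes of 12000 bases or more a median of 0.09. The members are long, with a median deposited length of 9864.5 bases beside 4219 for all tested genes, and 7 of the 10 exceeded 8000 bases, as 17.04% of tested genes did. The differences of Mtor, Telo2 and Tsc2 were below the median of their own length class, 0.08 for 8000 to 12000 bases, while that of Tsc1 was above it. Trrap and Rptor stood above, and Rictor below, the median of the longest class. The part of length in the differences was not tested beyond the removal of the trend.

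**Figure D3:**
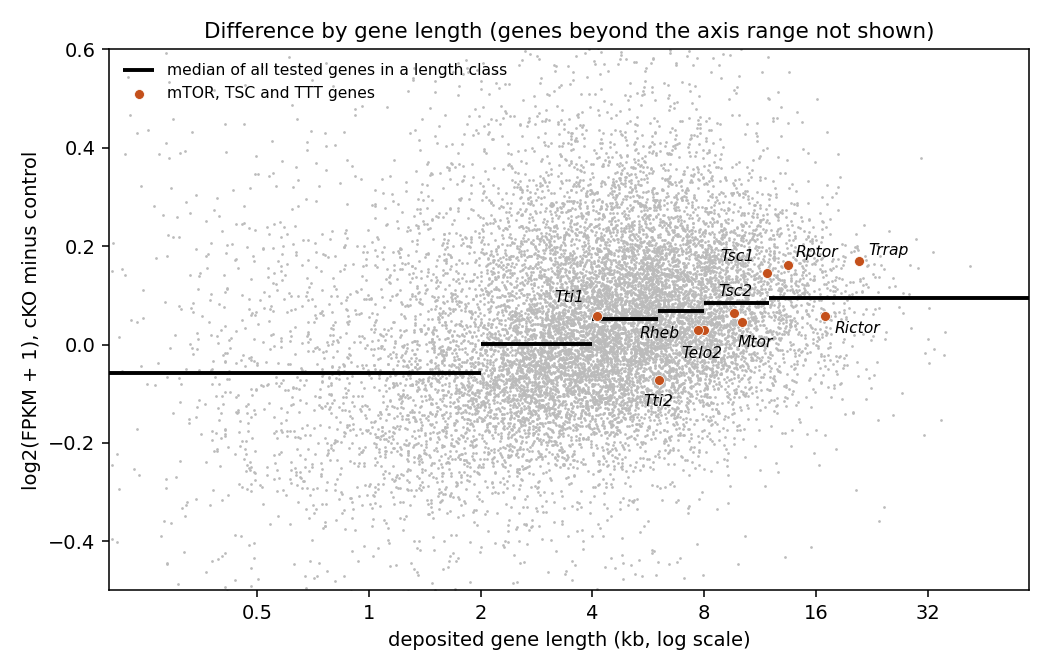
Log2 difference, cKO minus control, against the deposited gene length in kb on a log axis, for all tested genes (grey), the 10 members (orange) and the median of each length class (black lines). The class median climbs from -0.06 to 0.09, and 9 of the 10 members, all but Tti1, are longer than the median tested gene of 4219 bases.

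The other PIKK genes, named after their values were seen, all had higher means in cKO but did not pass. Beside Trrap and Mtor the family holds Atm, Atr and Prkdc, kinases of the DNA damage response, and Smg1, a kinase of nonsense-mediated decay. Of the 6 genes 1 rose, Trrap, and none fell, beside 13.4% of all tested genes that rose, and the family median was 0.14. Smg1 measured 7.42, 7.08 and 6.72 FPKM in control and 7.76, 7.87 and 8.46 FPKM in cKO with an adjusted p of 0.071, and Atm measured 5.05, 4.70 and 4.63 FPKM in control and 5.18, 5.38 and 5.58 FPKM in cKO with an adjusted p of 0.10. Neither gene had overlapping groups, nor had Atr. With Trrap, all 3 cKO libraries thus lay above control in 4 of the 6 genes, as in 27.3% of all tested genes. Voom on the recovered reads called 3 of the 6 as higher, beside 2601 of the 13538 tested genes as higher. Atr went from a mean of 1.63 to 1.89 FPKM (adjusted p of 0.17) and Prkdc from 1.901 to 2.16 FPKM (adjusted p of 0.36). After removal of the gene length trend the family median was 0.05 and none passed.

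None of the 18 genes of TTT, R2TP and the prefoldin-like module passed limma's test. Before adjustment 3 had a limma p under 0.05, as 4846 of the 13538 tested genes had. Voom on the recovered reads called 2, each as lower, beside 1118 of the 13538 tested genes as lower. The median difference of the 18 was -0.07. Hsp90ab1, which encodes the constitutive Hsp90 chaperone and is the most abundant of them, measured 1038, 998 and 984 FPKM in control and 956, 910 and 873 FPKM in cKO (adjusted p of 0.12). The groups did not overlap. Also named after their values were seen, the R2TP ATPase genes Ruvbl1 (48.7 and 45.5 FPKM) and Ruvbl2 (44.9 and 43.6 FPKM) had adjusted p-values of 0.21 and 0.61, Pih1d1 had 0.36 and Rpap3 had 0.19, each with a lower mean in cKO. The authors' deposited table has Hsp90ab1, Pfdn6 (named after its value was seen) and Ruvbl1 lower in cKO. The adjusted p-values there are 0.00012, 0.0060 and 0.045. It has 23.1% of the 16021 genes to which it gives an adjusted p below 1 under 0.05, in either direction.

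Of the 27 partners of TRRAP in the TIP60 and SAGA complexes 4 fell, none rose and 23 did not pass, where 5.74% of all tested genes fell. The median difference was -0.04. Sgf29, a SAGA subunit that reads methylated histone tails, fell from 15.3 ± 0.37 to 12.1 ± 0.73 FPKM (SD, n = 3; log2 difference -0.32, adjusted p of 0.0060). Its libraries stood at 15.0, 15.7 and 15.4 FPKM in control and at 12.9, 11.8 and 11.5 FPKM in cKO, well apart. Meaf6 fell from 17.5 to 15.2 FPKM, Yeats4 from 71.6 to 62.9 FPKM and Epc2 from 21.4 to 19.3 FPKM, all subunits of TIP60-type acetyltransferase complexes. The call of Sgf29 held under all 17 alternatives, and those of Meaf6, Yeats4 and Epc2 under 15, 7 and 6.

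Among the 8 tested of 9 subunits of mTORC1 and mTORC2 2 passed as higher and none as lower, beside 13.4% and 5.74% of all tested genes, and 1 of the 2, Prr5l, was tested only because of its cKO level. After removal of the gene length trend 1 passed as higher, and with median-ratio scaling 1 passed as higher and 1 as lower. Mlst8, the subunit shared by both complexes, rose from 6.42 ± 0.02 to 7.45 ± 0.43 FPKM (SD, n = 3; log2 difference 0.19, adjusted p of 0.041). Its control libraries lay at 6.40, 6.44 and 6.43 FPKM and its cKO libraries at 7.48, 7.00 and 7.86 FPKM. The call of Mlst8 held under 6 of 17 alternatives and ended without any 1 of the 6 libraries (adjusted p between 0.051 and 0.11). In the authors' deposited table Mlst8 did not pass (adjusted p of 0.15), Prr5l was higher in cKO (0.00086) and Prr5 lower (0.025). Prr5 was named after its value was seen. Prr5l, which encodes the mTORC2 subunit Protor-2, measured 0.99 FPKM in control, under the limit of 1 FPKM, and 1.601 FPKM in cKO. Without a filter on low values it did not pass (limma adjusted p of 0.068), and its call held in 12 of 16 alternatives. The inhibitor gene Deptor was below the limit of 1 FPKM, at 0.51 FPKM in both groups. In the TSC list none of 5 passed. Before adjustment 2 had a limma p under 0.05, as 4846 of the 13538 tested genes had. Voom called 1 of the 5, as higher, beside 2601 of the 13538 tested genes as higher. The third TSC subunit gene Tbc1d7 measured 7.23 and 6.63 FPKM (adjusted p of 0.29).

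Of the 30 genes of amino acid sensing through the Rag GTPases and GATOR 6 rose and none fell, beside 13.4% of all genes that rose, and their median difference was 0.01. Sesn2, which encodes sestrin 2, a leucine sensor that restrains mTORC1 and a known target of p53 and of ATF4, had the smallest p. It measured 3.92, 4.39 and 3.85 FPKM in control and 8.23, 8.15 and 7.13 FPKM in cKO. Every cKO library lay far above every control library, with a mean of 4.05 ± 0.29 against 7.84 ± 0.61 FPKM (SD, n = 3) and a log2 difference of 0.81 ± 0.07 (SE), at an adjusted p of 0.00061. Sesn3, of the same family and known as a FoxO target, rose from 6.24 ± 0.34 to 8.47 ± 0.18 FPKM (SD, n = 3; log2 difference 0.39, adjusted p of 0.0027). The third sestrin gene, Sesn1, named after its value was seen, measured 19.4 and 20.9 FPKM (adjusted p of 0.22). Sesn2 and Sesn3 passed under all 17 alternatives. After removal of the gene length trend 2 of the 30, Sesn2 and Sesn3, rose and 1 fell. With median-ratio scaling 4 rose and 2 fell.

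Upstream of mTOR, 5 of 23 genes of the PI3K, AKT and AMPK group passed as higher and 1 as lower, beside 13.4% and 5.74% of all tested genes, with a median difference of 0.12. After removal of the gene length trend 2 passed as higher and 3 as lower, with a median of 0.037, and with median-ratio scaling 3 and 2. Ddit4l, which encodes REDD2, an inhibitor of mTORC1 that acts through TSC, measured 0.54, 0.59 and 0.78 FPKM in control and 2.02, 1.97 and 1.64 FPKM in cKO. The groups did not overlap, with between 56 and 231 reads in a library. Its control mean was 0.64 FPKM, so it reached the filter of 1 FPKM only through the cKO libraries, and it is 1 of the 5 counted as higher. Without a filter on low values the log2 difference of 0.81 had a limma adjusted p of 0.013. The pseudocount of 1 compresses this low gene: the cKO mean was 293% of control, and the difference was 1.43 with a pseudocount of 0.1 and 1.54 with voom. Its paralogue Ddit4, named after its value was seen, measured 46.5 and 52.1 FPKM (adjusted p of 0.27). Pik3r1, the main regulatory subunit of PI3K, rose from 7.05 ± 0.25 to 9.10 ± 0.32 FPKM (SD, n = 3; adjusted p of 0.0043), and Akt2 fell from 34.6 ± 0.90 to 31.1 ± 0.34 FPKM (SD, n = 3; adjusted p of 0.035). The AMPK subunit gene Prkaa1, named after its value was seen, rose from 5.76 to 7.32 FPKM (adjusted p of 0.044). Akt1, also named so, measured 78.7 and 75.4 FPKM (adjusted p of 0.28). Akt2 passed under 6 of 17 alternatives and Pik3r1 under all 17.

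Of 19 tested mTORC1 effector genes 2 rose and 1 fell, beside 13.4% and 5.74% of all tested genes, with a median difference of 0.05. With median-ratio scaling 2 rose and 3 fell, and after removal of the gene length trend 1 rose and 1 fell. Grb10, an adaptor that mTORC1 stabilises and that dampens insulin receptor signalling, rose from 12.4 ± 0.26 to 15.6 ± 0.73 FPKM (SD, n = 3; adjusted p of 0.0054). Lpin1, a phosphatidate phosphatase that mTORC1 keeps out of the nucleus, rose from 2.25 to 3.02 FPKM (adjusted p of 0.013), and Rps6, the ribosomal protein that S6 kinase phosphorylates, fell from 468 to 415 FPKM (adjusted p of 0.036). Reads of Rps6 can be shared with its processed pseudogenes. Of 8 tested mTORC2 effector genes 3 rose and none fell, beside 13.4% and 5.74% of all tested genes, with a median of 0.19, and 2 rose after removal of the gene length trend and with median-ratio scaling. Foxo1, a transcription factor that AKT keeps out of the nucleus, measured 3.14, 3.17 and 3.57 FPKM in control and 5.19, 4.96 and 4.46 FPKM in cKO (log2 difference 0.45, adjusted p of 0.0050). Prkca, a protein kinase C, rose from 4.15 to 5.81 FPKM (adjusted p of 0.0027) and Foxo3 from 11.5 to 13.2 FPKM (adjusted p of 0.030). Foxo1, Prkca and Grb10 passed under every alternative that tested them, Rps6 and Foxo3 under 6 and 7 of 17, and Lpin1 under 13 of 16.

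Among 20 tested genes known as transcriptional outputs of mTORC1 signalling 2 rose and 2 fell, beside 13.4% and 5.74% of all tested genes, with a median difference of -0.0017. With TPM scaling 5 rose and 1 fell, and after removal of the gene length trend 2 rose and 3 fell. Atf4, the transcription factor of amino acid synthesis and transport whose translation mTORC1 promotes, fell from 96.5 ± 6.4 to 79.4 ± 1.2 FPKM (SD, n = 3; log2 difference -0.28, adjusted p of 0.013). Its control libraries stood at 89.0, 100.2 and 100.2 FPKM and its cKO libraries at 78.0, 79.8 and 80.3 FPKM. The mitochondrial enzyme gene Shmt2 fell from 55.2 to 48.8 FPKM (adjusted p of 0.040), whereas the amino acid transporter gene Slc7a5 rose from 117 to 142 FPKM (adjusted p of 0.0073) and the glucose transporter gene Slc2a1 from 16.6 to 22.6 FPKM (adjusted p of 0.0095). The call of Shmt2 held in 8 of 17 alternatives, with adjusted p-values up to 0.13. Slc7a5 and Slc2a1 are also abundant in brain endothelium. Of 21 lysosomal targets of TFEB and TFE3, factors that mTORC1 holds in the cytoplasm, 5 rose and none fell, beside 13.4% and 5.74% of all tested genes, with a median of 0.03, and with median-ratio scaling 2 rose and 1 fell. The protease gene Ctsb rose from 88.8 to 105.3 FPKM (adjusted p of 0.0054).

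**Figure D4:**
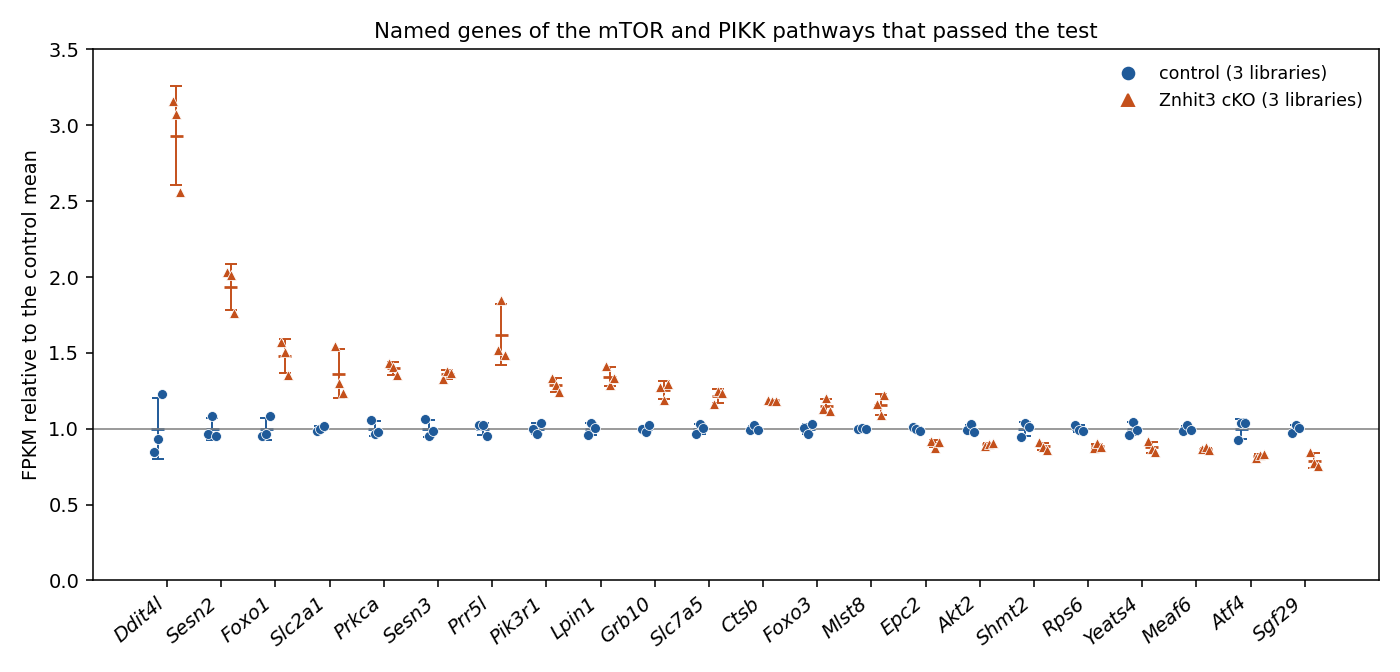
FPKM of each library divided by the control mean of the gene. Circles mark control and triangles cKO, with short lines for means and error bars for SD, n = 3. Shown are pathway genes named in the text that passed the test, other than the members and Prkaa1. Ddit4l, tested only because of its cKO level, and Sesn2 have the highest cKO means, and the 8 genes on the right were lower in all 3 cKO libraries. Prr5l was also tested only because of its cKO level.

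Over all pathway lists without the 10 members, 25 of 174 tested genes rose and 8 fell, which is 33 called beside 19.1% of all genes. The median difference of the 174 was 0.03. The 25 include Ddit4l and Prr5l, which were tested only because of their cKO level. The split moved with the scaling: 13 rose and 12 fell after removal of the gene length trend, 16 rose and 19 fell with median-ratio scaling, and 35 rose and 3 fell with TPM scaling.

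Markers of cell types moved with genotype in the same libraries. Among all tested genes 13.4% rose and 5.74% fell. Of 11 markers of granule cell progenitors 4 fell and 1 rose, all 11 were above 1 FPKM, and their summed level was 1252 to 1354 FPKM in control and 1016 to 1047 FPKM in cKO. Endothelial markers rose in 9 of 10 cases, with sums of 138 to 150 FPKM in control and 243 to 259 FPKM in cKO, and GABAergic interneuron markers rose in 7 of 9 tested cases and fell in 1, with sums of 104 to 115 and 136 to 155 FPKM. Pericyte markers rose in 6 of 6 tested cases (sums of 31.3 to 32.7 and 49.9 to 51.4 FPKM), oligodendrocyte lineage markers in 6 of 7 (120.2 to 125.6 and 152 to 165 FPKM) and microglial markers in 6 of 10 (239.9 to 242.9 and 287 to 333 FPKM). The remaining tested oligodendrocyte lineage marker, Pdgfra, went the other way, with all 3 cKO libraries below all 3 control libraries. It did not pass here, but passed as lower after removal of the gene length trend, with median-ratio scaling and with voom. The authors' deposited table lists a log2 fold change of -0.19 for it (adjusted p of 0.00028). Astroglial markers rose in 5 of 9 cases (844 to 867 and 887 to 917 FPKM), Purkinje cell markers in 3 of 4 tested of 7 listed (11.1 to 12.7 and 14.5 to 15.0 FPKM) and erythroid markers in 4 of 5 tested (1211 to 1476 and 1656 to 1887 FPKM). After removal of the gene length trend 4 of 9 astroglial and 1 of 4 Purkinje cell markers rose, and 6 of 11 granule cell progenitor markers fell. With quantile normalization 6 of 9 astroglial and 1 of 4 Purkinje cell markers rose, and 4 of 11 granule cell progenitor markers fell. Choroid plexus markers fell in 7 of 8 cases and rose in 1, with sums of 1397 to 1485 FPKM in control and 678 to 757 FPKM in cKO. Single genes weigh heavily in some sums. Means over the 6 libraries were 1017 FPKM for Ttr (choroid plexus), 518 FPKM for Fabp7 (astroglia) and 800 FPKM for Hba-a1 (erythroid). No listed marker was at 0 in any library, and the lowest, Dlx1 and Tagln, had 1 to 8 reads in a library. The part of these shifts in the values of the members and of the pathway genes was not tested, and in bulk samples fewer cells of a type and less RNA per cell cannot be told apart.

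Patterns like those of Mtor and Telo2 over the 6 libraries were listed as a description. For Mtor the highest Pearson correlations of log2(FPKM + 1) were those of Tpst2, Galnt11 and Ap2a2, each at 0.987. For Telo2 they were those of Synpr at 0.998, Npff at 0.989 and the pseudogene Rpl3-ps1 at 0.984. None of these 6 genes passed the test between groups.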

How the data were processed

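Granule cell progenitors of control and Znhit3 cKO mice at P3 were compared, with 3 libraries each and 1 deposited table. The authors deposited FPKM per library, a mean signal over libraries, a log2 fold change with its error, a test score and p-values, per the file headers, and gene lengths and positions. Per the submitters' processing notes, cutadapt 1.9, HISAT2 2.2.1, StringTie 2.1.6, DESeq2, edgeR and build mm10 are named without roles. The sources used here do not give the filters, the annotation or whether counting used strand, so reads of overlapping genes cannot be told apart even though the labels' protocol marks strand with dUTP. Of 29560 genes shared with GENCODE M21 (GRCm38), 614 had the same start and end as in the deposited table, and none of the members did, so positions are printed without a build. The columns with the prefix ZM were taken as cKO because the other 3 carry the control prefix.

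FPKM multiplied by length gave whole reads for 100% of values (within 0.001), between 29119803 and 52961445 per library, so 3 reads per kilobase correspond to 0.0566 to 0.103 FPKM. No 2 libraries of a group agreed within counting noise (chi-square per degree of freedom 4.38 to 9.71). FPKM depends on gene length and on the total of all genes, so a few abundant genes can shift the rest.

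A gene was tested where its mean over the 6 libraries reached 1 FPKM (13538 of 31091). log2(FPKM + 1) was fitted in limma (version 3.58.1, R 4.3.3), letting the variance follow mean level, and p-values were adjusted by Benjamini-Hochberg over all tested genes with a threshold of 0.05. Ratios were compared with exact two-sided permutation tests (scipy 1.17.1, Python 3.11.15). The test was checked on simulated data. Alternatives changed the pseudocount, the filter, the scaling, the model and the libraries. Of 275 listed symbols 273 matched by symbol, 1 through GENCODE and 1 through a RefSeq synonym. The members and lists were chosen with earlier results of these data known. Named were Znhit3, the members, and of each pathway list every called gene where at most 4 were called, otherwise the 2 higher and the 2 lower with the smallest p, or the most abundant other gene where none was called. For Mtor and Telo2 the 3 most correlated genes were named. Genes named outside this rule are marked as such or overlap a member. Some genes of the lists are counted but not reported here by name. Promoter windows are from RefSeq (GRCm38.p6).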

Additional observations from a re-analysis of the deposited data

How the results depend on the processing

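Up to 17 alternatives were run. Median-ratio scaling and the order of levels by the longest transcript were chosen after seeing the data. Znhit3 stayed lower and past the threshold in all 17, from -1.07 to -0.89. The count of members called was 3 with TPM scaling and with voom, 0 with quantile normalization, with removal of the gene length trend and with median-ratio scaling, and 0 to 1 when 1 library was left out. Genes called over the whole table went from 2590 to 1271 without a filter on low values and to between 1207 and 2195 with 1 library left out, and pathway genes from 33 to 14 and to between 13 and 28. With the replicate block 0 members, 17 pathway genes and 1542 of all genes were called, and Trrap had a limma adjusted p of 0.071. The numbers were not taken to pair the samples, since same-number correlations of deviations ran from -0.10 to 0.04 and 1 of 3 cKO libraries correlated best with its own number. Signs turned for members that did not pass. With removal of the gene length trend Mtor was -0.044, Rictor -0.033, Telo2 -0.051, Tsc2 -0.025 and Rheb -0.049. With quantile normalization Mtor was -0.016, Rictor -0.023 and Telo2 -0.047. With median-ratio scaling Telo2 was -0.0091 and Rheb -0.012. With 1 library left out Telo2 ran from -0.065 (without cKO replicate 3) to 0.11, the log2 ratio of Tti1 to Telo2 from -0.039 (without cKO replicate 2) to 0.093 and that of Tti2 to Telo2 from -0.26 to 0.019 (without control replicate 1). The cause of these changes was not tested. Over all genes 1813 rose and 777 fell, 1167 and 1038 after removal of the length trend, 1241 and 1213 with median-ratio scaling, 1083 and 823 with quantile normalization and 2448 and 549 with TPM scaling. With a minimum of 5 FPKM Rptor, Rictor and Tti2 were not tested. With 3 libraries a group small differences could not be resolved, as the 95% interval of Telo2 from -0.19 to 0.25 shows.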
